A study of Homo sapiens with 6 samples.

Results

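The CDK inhibitor genes comprise 7 loci, the CIP/KIP genes CDKN1A, CDKN1B and CDKN1C and the INK4 genes CDKN2A, CDKN2B, CDKN2C and CDKN2D, out of 19970 protein-coding genes on the autosomes and chromosome X. They were taken as a family by name, and the family was chosen by a measured value, the strength of the E2F1 peak at CDKN2D, so the values of that peak are given as a description without a test. For each gene, peaks were collected within 1 kb of any of its transcription start sites (TSSs) in GENCODE v44, and over the gene body with 50 kb on either side. Chromatin immunoprecipitation sequencing (ChIP-seq) had been carried out in MDA-MB-231, an established human triple-negative breast cancer cell line. E2F1 was precipitated from untreated cells, from a 72 h exposure to DMSO, the solvent, and from a 72 h exposure to 1 µM GSK126, an inhibitor of the methyltransferase EZH2. Histone H3 trimethylated at lysine 27 (H3K27me3) was precipitated after a 24 h lentiviral transduction, either with control shRNA or with an shRNA that targets E2F1 (shE2F1), and a 72 h selection in puromycin (2 µg/ml). Each of these 5 conditions was 1 library and 1 peak list, and an input of untreated cells was not used here, so differences between lists have no replicate error and were not tested. E2F1 was not mapped in the shRNA cells and H3K27me3 was not mapped in the drug-treated cells.

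CDK inhibitors hold back the cell cycle by binding cyclin-dependent kinases. INK4 proteins bind CDK4 and CDK6 and keep them from D-type cyclins, whereas CIP/KIP proteins bind cyclin-CDK complexes, above all those that contain CDK2. The kinases phosphorylate the retinoblastoma protein, which releases E2F factors such as E2F1 to activate genes of DNA replication and mitosis. EZH2 places H3K27me3, a mark of repressed genes, and the INK4 locus on chromosome 9 is a textbook target of it. The CDKN2A and CDKN2B region is known to be deleted in MDA-MB-231, so that an absence of peaks there carries no information on binding.

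The sequences under the E2F1 summits, the positions of highest enrichment, are shown first because the E2F1 results below refer to these sites. An E2F motif was searched as TTNNCGC, in which each N is C or G, on either strand within 100 bp of a summit. Of windows of the same length centred on the canonical TSS of each protein-coding gene (that of its representative transcript), 12.3% held such a word. For summits, the share was 54.5% in untreated, 17.5% in DMSO and 26.9% in GSK126. All sequences are from hg38 and are written 5′ to 3′ along the strand of the CDK inhibitor gene, with the motif in capitals, which appears as its reverse complement where it lies on the other strand. For CDKN2D the 201 bases around the summit, chr19:10569171-10569371 on the minus strand and upstream of the annotated transcripts, are printed. The single match, TTCCCGC, had its centre 13 bp from the summit.
CDKN2D summit: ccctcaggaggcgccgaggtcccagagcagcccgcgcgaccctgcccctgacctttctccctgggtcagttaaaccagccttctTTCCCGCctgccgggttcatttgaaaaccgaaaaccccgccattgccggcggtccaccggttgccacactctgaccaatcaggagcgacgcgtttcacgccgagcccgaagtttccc
CDKN2C had matches at both of its promoters. The stretches at chr1:50968565-50968591 and chr1:50968662-50968688, on the plus strand, lay in a UTR exon of CDKN2C under its strongest peak. The stretch at chr1:50959962-50959988 lay in a UTR exon of the neighbouring gene FAF1 and held a match whose centre was 1 bp from the GSK126 summit.
CDKN2C first site: agagcgggagGCGGGAAtgagggcgcg
CDKN2C second site: gcgcccggccTTCCCGCtcccgcggcg
CDKN2C site at FAF1: gcggggcagcGCGGGAAgcgctaggcg
CDKN1B had no match within 100 bp of its strongest summit. Matches under its weaker downstream peaks lay outside annotated genes at chr12:12724027-12724053 and chr12:12725091-12725117 on the plus strand.
CDKN1B first downstream site: tcgcgcgcagTTCCCGCgcccgggcgg
CDKN1B second downstream site: aaggcgttggGCGCGAAacctcgacgc
CDKN1A had no match within 100 bp of its summit either, which says only that these letters were not in that window. A wider motif that ends in C or G, chosen after the sequence was seen, adds TTNNCGG with the same choice of N. Of the TSS windows, 23.2% held a word of the wider set. For summits, the share was 67.8% in untreated, 24.9% in DMSO and 40.0% in GSK126. At CDKN2D the wider motif added TTGCCGG, centred 29 bp from the summit and left in lower case above. At CDKN1A it matched TTGGCGG, centred 2 bp from the summit shared by DMSO and GSK126, and TTCGCGG, centred 77 bp away. The added CDKN1A matches are in capitals in chr6:36680408-36680608 on the plus strand, in an exon of a noncoding CDKN1A transcript.
CDKN1A summit: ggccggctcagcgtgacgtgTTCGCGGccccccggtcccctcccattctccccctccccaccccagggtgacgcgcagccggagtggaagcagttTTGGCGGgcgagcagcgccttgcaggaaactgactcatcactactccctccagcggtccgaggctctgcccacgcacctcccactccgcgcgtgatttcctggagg
With the first set of words, CDKN2C and CDKN2D had a match at their strongest summit in all 3 E2F1 lists, whereas CDKN1A and CDKN1B had none. CDKN1C, which had the weakest promoter peaks of the family, had 2 matches at its DMSO promoter summit and 0 at its GSK126 one, so matches were not limited to the INK4 genes or to the strongest peaks. A match is a description of the sequence and not evidence of binding. No sequence is shown for CDKN1C, CDKN2A or CDKN2B.

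E2F1 peaks lay at the promoters of 3 of the 7 genes in untreated cells (CDKN1B, CDKN2C and CDKN2D), and at those of 5 of the 7 in DMSO and in GSK126, which added CDKN1A and CDKN1C. Among all protein-coding genes, 5.88% had an E2F1 promoter peak in untreated, 34.0% in DMSO and 52.2% in GSK126. CDKN1B, CDKN2C and CDKN2D had one in all 3 lists, as did 5.77% of all genes. CDKN2A and CDKN2B had no E2F1 peak in any list, and an absence of peaks there carries no information. Without them, the counts were 3 of 5 genes in untreated and 5 of 5 in DMSO and in GSK126. CDKN2D counts in each list through the peak that led to the choice of the family. The counts are therefore a description, and so few genes allow no statement on whether the family differs from genes at large. The lists differed in size, with 1056 peaks in untreated, 15703 in DMSO and 14276 in GSK126, so a gene without a peak in untreated may lie below what that library could detect. The number of fragments over a summit was recovered from the deposited values, and the lowest local background was 0.668 fragments in untreated, 1.82 in DMSO and 1.70 in GSK126. Fold is given below as the deposited enrichment at the summit over local background, and intervals are exact 95% intervals that cover counting error only.

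**Figure D1:**
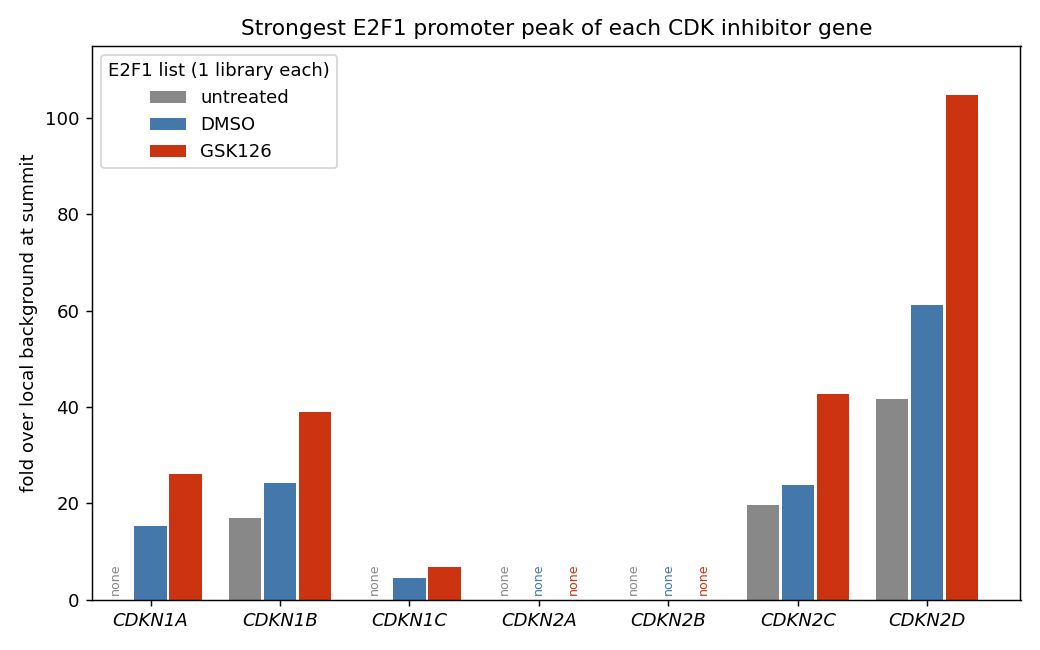
Fold over local background (y axis, linear, from 0) of the strongest E2F1 promoter peak of each CDK inhibitor gene (x axis) in the 3 E2F1 lists of 1 library each; "none" marks a gene without a promoter peak. CDKN2D stands highest in each list, at 41.7 in untreated, 61.1 in DMSO and 105 in GSK126, and CDKN2A and CDKN2B have no bar.

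CDKN2D, which encodes an INK4 inhibitor of CDK4 and CDK6, carried the peak that led to the choice of this family. Its E2F1 fold was 41.7 in untreated, 61.1 in DMSO and 105 in GSK126. The peak ranked 1 by −log10 q in each of the 3 lists, and by fold it ranked 2 in untreated and 1 in both DMSO and GSK126. The summit was at position 10569271 of chromosome 19 in all 3 lists, 212 bp upstream of the nearest TSS and 292 bp upstream of the canonical one. It held 93 fragments in untreated (75.1 to 114), 398 in DMSO (360 to 439) and 640 in GSK126 (591 to 692). The peak widened from 579 bp in untreated, at chr19:10568990-10569568, to 1451 bp in DMSO and 2027 bp in GSK126. Median width over all peaks rose in the same order, from 302 bp to 436 and 618 bp. The position was thus fixed to the base while height and width were greatest in GSK126. The lists near CDKN2D differed beyond the promoter as well. Within 50 kb, untreated had 1 peak, DMSO 2 and GSK126 7, and the GSK126 peaks other than the promoter peak had folds of 4.02 to 7.81. Most of these had summits close to TSSs of neighbours, such as SLC44A2, S1PR5, ATG4D, KRI1 and AP1M2. Promoter peaks were also most frequent in GSK126 among all protein-coding genes, at 52.2% against 34.0% in DMSO and 5.88% in untreated. The genes whose strongest promoter folds lay nearest to those of CDKN2D over the 3 E2F1 lists were PPWD1 and CENPK, which share a peak, and EZH2. Their largest log2 difference from CDKN2D in any list was 0.41 for PPWD1 and CENPK and 0.42 for EZH2, among 1151 genes compared. EZH2 had folds of 31.3 in untreated, 48.7 in DMSO and 96.0 in GSK126.

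CDKN2C, the other INK4 gene with peaks, carried E2F1 peaks at 2 promoters. Its strongest fold was 19.7 in untreated, 23.7 in DMSO and 42.7 in GSK126. That peak stood at the TSS upstream of the canonical one, with summits 1651 bp (untreated), 1588 bp (DMSO) and 1592 bp (GSK126) upstream of the canonical TSS. Of genes with a promoter peak, 43 had a higher fold in untreated, 179 in DMSO and 160 in GSK126. A further peak lay about 10 kb upstream and is shared with FAF1, a gene on the opposite strand, with folds of 11.4 in untreated, 10.1 in DMSO and 20.5 in GSK126. It lay within 1 kb of the most upstream CDKN2C TSS, so the lists cannot assign it to either gene. The canonical TSS lay just outside the strongest peak, which ended 0.165 kb before it in DMSO and 0.012 kb before it in GSK126. A site downstream of the gene had a fold of 8.26 in DMSO and 15.8 in GSK126, 7415 and 7354 bp from the canonical TSS, and no peak in untreated. The genes most like CDKN2C over the 3 E2F1 lists were LRR1 and RPS29, which share a peak, and FAM200C, with largest log2 differences of 0.08, 0.08 and 0.09.

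CDKN1B encodes the CIP/KIP protein p27, an inhibitor of cyclin E-CDK2. Its strongest E2F1 peak was far from the canonical TSS, near an upstream CDKN1B TSS, and was shared with GPR19. Fold there was 17.0 in untreated, 24.2 in DMSO and 39.0 in GSK126. The summit lay 21183 bp upstream of the canonical TSS in untreated, 21180 bp in DMSO and 21160 bp in GSK126, and 1 or 2 bp from a GPR19 TSS in the 3 lists, so the lists cannot assign this peak to 1 of the 2 genes. The canonical CDKN1B promoter carried a weaker peak with a fold of 7.14 in DMSO and 11.9 in GSK126, and none in untreated. With the canonical TSS alone, CDKN1B would therefore have no promoter peak in untreated. Downstream peaks towards APOLD1 reached folds of 8.39 in untreated, 8.58 in DMSO and 17.5 in GSK126. POLD3, ZNF367 and RHEB had the most similar E2F1 folds to CDKN1B, with largest log2 differences of 0.06, 0.09 and 0.10 among 1150 genes.

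CDKN1A encodes p21, the CIP/KIP protein induced by p53. It carried an E2F1 peak inside the gene in all 3 lists, but only the broader DMSO and GSK126 peaks reached the promoter. Fold was 12.1 in untreated, 15.2 in DMSO and 26.1 in GSK126. The summits lay 1803 bp downstream of the canonical TSS in untreated and 1794 bp downstream in both DMSO and GSK126. The untreated peak at chr6:36680362-36680699 was 338 bp wide and had its near edge 1591 bp from the nearest TSS, just outside the 1 kb rule, whereas the DMSO and GSK126 peaks were 2289 and 2826 bp wide and overlapped a TSS. The same summit therefore counts as a promoter peak in 2 lists and not in the third through peak width. Of genes with a promoter peak, 546 had a higher fold than CDKN1A in DMSO and 562 in GSK126.

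CDKN1C encodes p57, the CIP/KIP protein of an imprinted cluster on chromosome 11. It had the weakest E2F1 promoter peaks of the family. There was no peak within 50 kb in untreated, and the promoter fold was 4.40 in DMSO and 6.77 in GSK126. The summits of these were 1234 bp apart and rested on 20 fragments in DMSO (12.2 to 30.9) and 30 in GSK126 (20.2 to 42.8), so they need not be the same site. In DMSO, 5303 of 6799 genes with a promoter peak had a higher fold, and in GSK126 6280 of 10417. CDKN1C thus stood in the lower part of the called genes, in contrast to CDKN1B, CDKN2C and CDKN2D. The other E2F1 peaks in its window lay at neighbours, including PHLDA2, where fold was 4.03 in DMSO and 7.96 in GSK126.

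**Figure D2:**
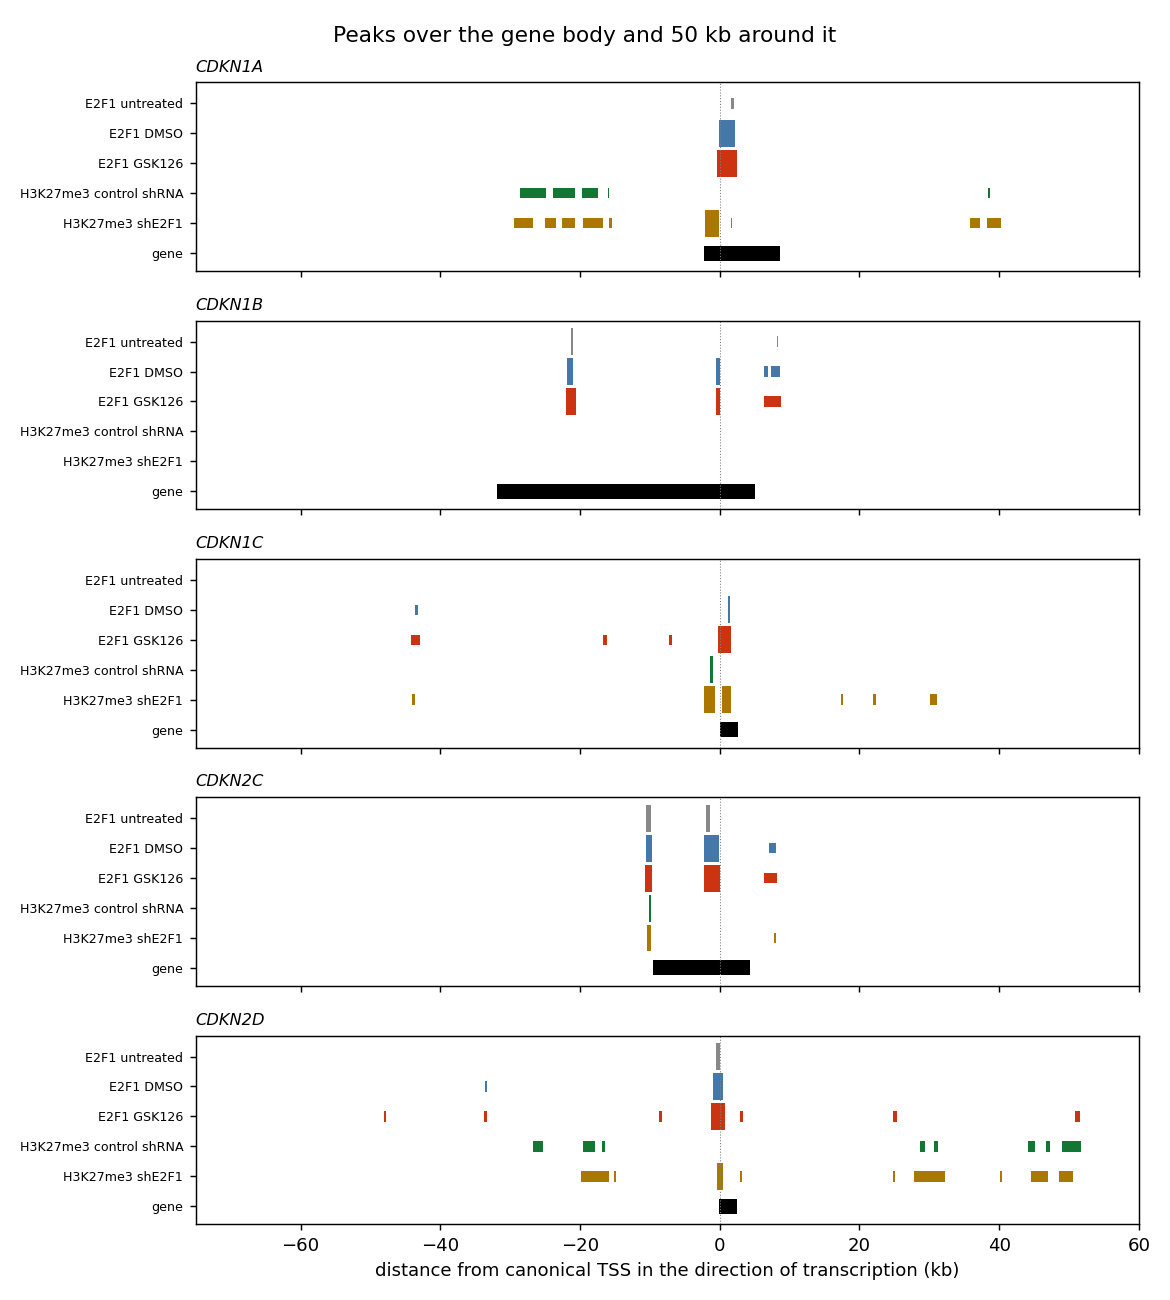
Peaks over the gene body and 50 kb around it for the 5 CDK inhibitor genes that have any, by distance from the canonical TSS in the direction of transcription (x axis, kb); each row is 1 list, tall bars are peaks within 1 kb of a TSS of the gene, the black bar is the gene, and peaks under 0.25 kb are drawn at that width. Of the E2F1 peaks, 4 of 6 in untreated, 7 of 12 in DMSO and 7 of 18 in GSK126 are tall bars. CDKN1B has no H3K27me3 peak, and the H3K27me3 bars at the CDKN1A and CDKN2D promoters appear in the shE2F1 row alone.

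GSK126 was compared with DMSO to ask how E2F1 occupancy stands when EZH2 activity is inhibited. Fold was higher in GSK126 at the strongest promoter peak of 5 of the 5 genes that had one in both lists, as it was for 97.1% of the 6663 protein-coding genes with one in both. On the log2 scale, the GSK126 fold over the DMSO fold came to 0.77 for CDKN1A, 0.69 for CDKN1B, 0.62 for CDKN1C, 0.85 for CDKN2C and 0.78 for CDKN2D. The median over these 5 genes was 0.77 and that over the 6663 genes was 0.73, with quartiles of 0.50 and 0.93. All 5 genes lay between those quartiles, so the higher fold at the CDK inhibitor genes was of the size seen at promoters in general. Fragments over the lowest background of each list gave a log2 ratio of 0.78 for CDKN2D (0.60 to 0.97), 0.87 for CDKN2C (0.57 to 1.16), 0.79 for CDKN1A (0.47 to 1.11) and 0.71 for CDKN1B (0.35 to 1.08). For CDKN1C the same ratio was 0.68 and its interval ran from −0.18 to 1.58, so at this depth no difference could be told from counting error. These intervals hold no biological error, and a difference in library quality between the drug and the solvent cannot be told apart from an effect of the drug.

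**Figure D3:**
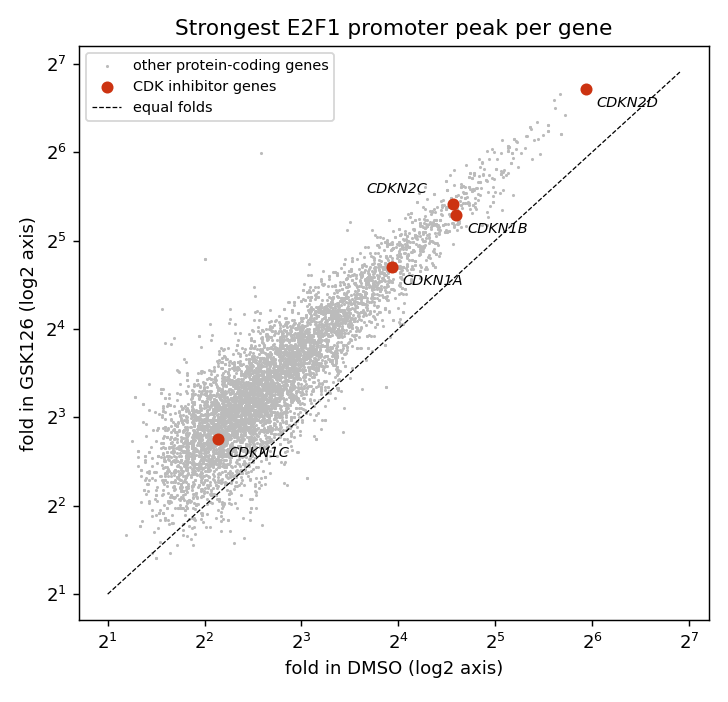
Fold of the strongest E2F1 promoter peak of each of the 6663 protein-coding genes with one in both lists, in DMSO (x axis) and GSK126 (y axis), both on log2 axes, 1 library each; red points are CDK inhibitor genes and the dashed line marks equal folds. The 5 red points lie above the line inside the cloud of grey points, CDKN2D at its upper end.

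The DMSO and untreated lists allow a view of how alike separate E2F1 libraries are at the same sites. In fragments over the lowest background, CDKN1A had 73.4 in untreated and 73.1 in DMSO, a log2 ratio of −0.00 (−0.49 to 0.50). CDKN1B at its strongest site had 52.4 in untreated and 57.7 in DMSO, a log2 ratio of 0.14 (−0.42 to 0.74). CDKN2D had 139 in untreated and 219 in DMSO, a log2 ratio of 0.65 (0.32 to 0.99). CDKN2C at its strongest site had a log2 ratio of 0.55 (0.03 to 1.09). Each ratio sets 1 library against another, its interval covers counting error only, and the values at CDKN2D are a description, since that peak led to the choice of the family. The log2 ratios thus ran from about 0 at CDKN1A to 0.65 at CDKN2D between libraries that were both made without GSK126.

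H3K27me3 was compared between shE2F1 and control shRNA to ask whether the mark differs when E2F1 is depleted. The paper reports a marked drop in E2F1 expression after its knockdown. The RNA of E2F1 was not measured in these libraries, so the depletion could not be checked here. Promoter peaks were present at 2 of the 7 genes in control shRNA (CDKN1C and CDKN2C) and at 4 of the 7 in shE2F1 (CDKN1A, CDKN1C, CDKN2C and CDKN2D). Of all protein-coding genes, 27.1% had one in control shRNA and 51.2% in shE2F1. CDKN1A and CDKN2D had a promoter peak in shE2F1 only, 2 of 7 genes against 26.0% of all genes, and 0 of 7 had one in control shRNA only, against 1.94%. These counts include CDKN2A and CDKN2B, at which an absence of peaks carries no information. Without these genes, the counts were 2 of 5 in control shRNA, 4 of 5 in shE2F1 and 2 of 5 in shE2F1 only, and so few genes allow no statement on whether the family differs from genes at large. The shE2F1 list covered 179 Mb in 135683 peaks and the control shRNA list 143 Mb in 123957, and with 1 library each a wider list and an effect of the knockdown cannot be told apart.

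At CDKN2D the H3K27me3 peak in shE2F1 lay at chr19:10568541-10569437, had a fold of 3.52 and −log10 q of 3.59, and covered the summit of the E2F1 peak of the other libraries. In control shRNA the nearest peak lay 16357 bp from a CDKN2D TSS. Both lists had peaks elsewhere in the window, 8 in control shRNA over 9.04 kb and 9 in shE2F1 over 14.8 kb. The mark was thus present on both sides of CDKN2D in both lists, and the promoter peak was the difference near the gene itself, together with a short peak at KRI1 (fold 3.08). Among genes with a promoter peak in shE2F1, 3479 of 10226 had a higher fold than CDKN2D.

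At CDKN1A the shE2F1 peak at chr6:36676667-36678662 had a fold of 2.5 and −log10 q of 2.04 and overlapped the noncoding gene DINOL. It came within 48 bp of a CDKN1A TSS, yet 9974 of the 10226 genes with a promoter peak in shE2F1 had a higher fold. A further shE2F1 peak at chr6:36680257-36680472, with a fold of 2.60, overlapped the E2F1 peak of all 3 E2F1 lists but lay 1486 bp from the nearest TSS. In control shRNA the nearest peak was 13550 bp away. A group of peaks upstream of CDKN1A was present in both lists, and the window held 5 peaks over 9.94 kb in control shRNA and 9 peaks over 15.3 kb in shE2F1. CDKN1A was thus flanked by weak H3K27me3 in both libraries.

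At CDKN1C the control shRNA call rested on a weak peak just inside the rule. The peak at chr11:2886707-2887217 lay 932 bp from the TSS, with a fold of 2.67 and −log10 q of 1.21, and 5271 of 5412 genes with a promoter peak in that list had a higher fold. In shE2F1, a peak at chr11:2884203-2885445 over the coding exon had a fold of 3.44 and −log10 q of 2.89, and a second at chr11:2886458-2888095 had a fold of 2.77. The window held 1 peak over 0.511 kb in control shRNA and 6 peaks over 5.05 kb in shE2F1.

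At CDKN2C the H3K27me3 peaks were the strongest of the family and lay at the promoter shared with FAF1, not at the TSSs under the strongest E2F1 peak. Fold was 5.37 at chr1:50960161-50960360 in control shRNA, with −log10 q of 10.5, and 7.67 at chr1:50959802-50960458 in shE2F1, with −log10 q of 29.2. Of genes with a promoter peak, 356 of 5412 had a higher fold in control shRNA and 385 of 10226 in shE2F1. Both peaks overlapped the E2F1 peak at FAF1 in all 3 E2F1 lists. They were narrow for this mark, at 200 and 657 bp, against medians of 722 and 811 bp over the 2 lists.

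CDKN1B had no H3K27me3 peak within 50 kb in either list. The nearest lay 539764 bp from a TSS in control shRNA and 68932 bp away in shE2F1. The peak-free stretch around its canonical TSS was 1706 kb in control shRNA, which ranked 118 of 123772 in the genome by length, and 224 kb in shE2F1. The other 4 genes with E2F1 peaks each had at least 1 H3K27me3 peak within 50 kb in both lists. Over all 7 windows, H3K27me3 peaks covered 19.7 kb in control shRNA and 36.0 kb in shE2F1, most of it at CDKN1A and CDKN2D.

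**Figure D4:**
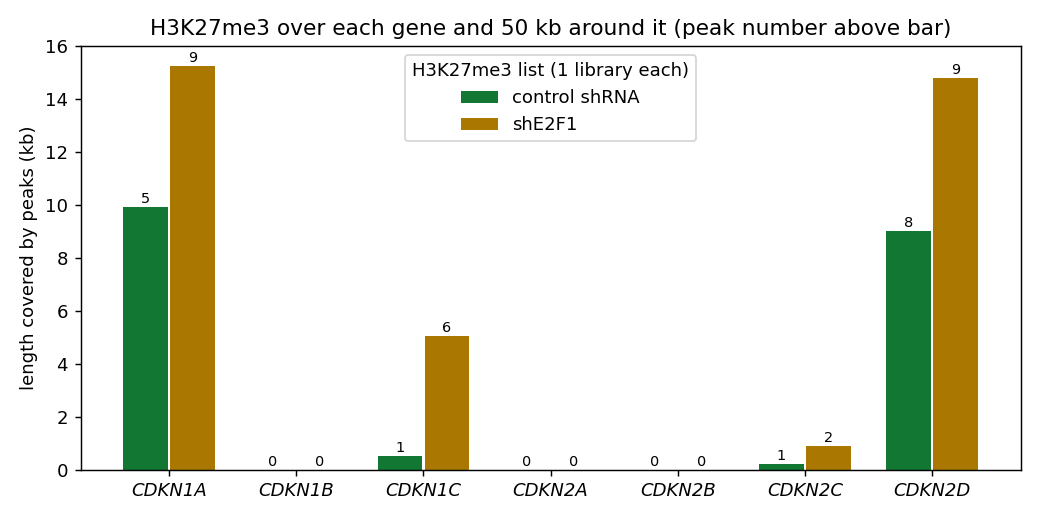
Length covered by H3K27me3 peaks (y axis, kb) over each gene and 50 kb around it, in control shRNA and shE2F1, 1 library each, with the number of peaks above each bar. The bars of CDKN1A and CDKN2D are the longest, at 9.94 and 9.04 kb in control shRNA and 15.3 and 14.8 kb in shE2F1, and CDKN1B, CDKN2A and CDKN2B have no peak.

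CDKN2A, which encodes p16INK4a and ARF, and CDKN2B, which encodes p15, had no peak of any kind within 50 kb in any of the 5 lists. They lay in a stretch of chromosome 9 without a peak in all 5 lists, chr9:20684711-25677527, which spans 4993 kb. It ranked 3 by length among 183175 peak-free stretches of the genome over the union of the lists, whose median was 2.29 kb. In the single lists the stretch around both genes was 6033 kb in control shRNA (rank 5 of 123772), 5352 kb in shE2F1 (rank 2 of 135478), 4994 kb in DMSO (rank 9 of 15555) and 4993 kb in GSK126 (rank 16 of 14138). In untreated, no peak lay to the left on chromosome 9, and the next peak to the right was 12075 kb from the canonical CDKN2A TSS. The lists thus had no peak for either antibody over several megabases, also at genes other than the INK4 pair.

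The stretch held 24 protein-coding genes, among them MTAP, an enzyme of methionine salvage, the type I interferon cluster, KLHL9, DMRTA1 and ELAVL2. Of the 23 protein-coding genes within 1 Mb of CDKN2A and CDKN2B, the pair included, FOCAD was the single gene with a promoter peak. Its E2F1 fold was 5.28 in DMSO and 6.15 in GSK126. The FOCAD peak lay at the left edge of the stretch, 1283 kb from CDKN2A. The stretch free of H3K27me3 peaks in both lists was chr9:20326647-25678079. In the 500 kb to its left, control shRNA had 28 peaks and shE2F1 had 31. In the 500 kb to its right, shE2F1 had 1, the peak that bounds the stretch. Control shRNA had 0 there by construction, since its own peak-free stretch ran on to position 26359590. The 2 sides are therefore not compared. The promoter windows of CDKN2A and CDKN2B had GC contents of 62.6% and 61.9%, against a median of 61.3% over protein-coding genes. The deletion known for this line was not tested here, since no copy number or input value was used. A lost copy, a gene-poor region and chromatin without either signal all leave no peak, and from these lists alone they cannot be told apart. No statement on E2F1 or H3K27me3 at CDKN2A or CDKN2B follows from these lists.

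The partners of the CDK inhibitors were described with the same rule, as 15 genes for the kinases, cyclins, retinoblastoma proteins, p27-degrading factors and E2F1 itself. E2F1 promoter peaks were found at 7 of the 15 in untreated, 11 in DMSO and 13 in GSK126, against 5.88%, 34.0% and 52.2% of all genes. RBL1, a retinoblastoma-like protein, had folds of 17.6 in untreated, 33.3 in DMSO and 63.5 in GSK126. CCNA2, the S-phase cyclin A, had 5.57, 30.5 and 53.5 in the same order. These were the partners with the highest folds in DMSO and GSK126. CDK6 and CCND2 had no E2F1 promoter peak in any list. Fold was higher in GSK126 than in DMSO for 11 of the 11 partners with a peak in both, as for 97.1% of all genes with both. H3K27me3 promoter peaks were found at 3 of the 15 in control shRNA and 9 in shE2F1, against 27.1% and 51.2% of all genes. In shE2F1 only there were 6 of the 15, against 26.0%, and in control shRNA only 0, against 1.94%.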

How the data were processed

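ChIP-seq peak lists of 5 libraries were analysed. According to the labels and the study's methods, the authors checked paired-end reads with FastQC (v0.11.5), trimmed them with cutadapt (v4.5), filtered them with Picard and SAMtools, aligned them to GRCh38/hg38 with Bowtie2 (v2.5.2) and called peaks per library with MACS2 (v2.2.9.1), in narrow mode for E2F1 and broad mode for H3K27me3. The control given to MACS2 is not given in the sources used here. The labels describe sonication for all samples, whereas the methods describe micrococcal nuclease for histone marks. The deposited fold is a ratio of fragments to local background, each with a pseudocount of 1, at the summit of a narrow peak and averaged over a broad one. The deposited −log10 p and −log10 q were the authors' values. The deposited score was not used, and the deposited summit offset set the summit, with the midpoint in its place for broad peaks.

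Genes and TSSs came from GENCODE v44, and sequences were read from hg38. A promoter peak had any part within 1000 bp of any TSS of the gene, and overlap meant at least 1 bp. Fragments and background at E2F1 summits were solved from fold and p, and came out whole within a relative tolerance of 2e-05 at all summits. Read totals were not given in the files used here, so the lowest background stood in for depth. Intervals were exact Poisson or binomial 95% intervals. Peak-free stretches that cross an assembly gap were left out. With 1 library per condition no test was made, and no p-value between conditions is given. Named genes were the 7 CDK inhibitors, 15 partners, protein-coding genes within 1 Mb of CDKN2A and CDKN2B, genes that share a promoter peak with a member and the 3 genes closest in E2F1 fold to each member with a peak in all 3 E2F1 lists. Neighbours nearest to a summit were named after their peaks were seen. The members and lists were chosen with earlier results of these data known. The scripts, run with Python 3.11.15, pandas 2.3.3, SciPy 1.17.1 and pysam 0.24.0, were tested on simulated data. Alternatives were other promoter windows, TSS sets, q limits, flanks, scalings and motif windows, and the wider motif was added after the sequences were seen.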

Additional observations from a re-analysis of the deposited data

How the results depend on the processing

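No paired analysis was possible because each condition has 1 library. Of 82 recomputed values, 67 stayed within the limits set (1.5 times for counts and lengths, the counting interval for log2 ratios), 15 moved and 0 reversed. These limits compare counts and not which genes were called. The share of all protein-coding genes is not given under the alternative promoter rules, so these counts cannot be set against genes at large. When the summit, or the midpoint for H3K27me3, had to lie within 1 kb, CDKN1A lost its E2F1 promoter peak in DMSO and GSK126. It also lost its H3K27me3 promoter peak in shE2F1, and the genes with one in shE2F1 only were then CDKN1C and CDKN2D. With canonical TSSs alone, 1 gene had an E2F1 promoter peak in untreated (CDKN2D) and 1 an H3K27me3 promoter peak in control shRNA (CDKN1C). In control shRNA, 1 gene (CDKN2C) was left with a window of 500 bp, with the midpoint rule, at −log10 q of at least 2 and at −log10 q of at least 5. At −log10 q of at least 5, 1 gene (CDKN2C) was left in shE2F1 and 0 genes had a promoter peak in shE2F1 only. The CDKN2C peaks in these H3K27me3 counts are those shared with FAF1. The H3K27me3 length was 7.08 kb in control shRNA and 16.9 kb in shE2F1 with flanks of 20 kb, and 8.92 and 11.4 kb at −log10 q of at least 2. A motif with 1 more T was held by 21.5% of E2F1 summits in untreated, 5.00% in DMSO and 7.25% in GSK126. Among the members it left 1 gene (CDKN2D) in each E2F1 list, in counts that leave out CDKN1C. The cause of these moves was not tested beyond the stricter rule itself. The median over members of the GSK126 to DMSO log2 ratio stayed between 0.77 and 0.79 under every scaling tried. Read totals were not given, and the untreated list had the fewest peaks and the lowest background, so a gene without a peak there may be undetected rather than unbound.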
